A study of Mus musculus with 15 samples.

Results

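The genes described here are Fgf4, which encodes a fibroblast growth factor secreted by pluripotent cells, the receptor genes Fgfr1 and Fgfr2, and 7 genes whose transcripts are read as output of the ERK kinase pathway: Spry2, Spry4, Spred1, Dusp4, Dusp6, Etv4 and Etv5. Every probe set annotated to 1 of these 10 genes was taken, which gave 31 probe sets of the 45037 on the array other than controls. Spred1 had 8 of them, Fgf4 and Spry4 had 4 each, Fgfr1, Fgfr2 and Etv5 had 3 each, Spry2 and Etv4 had 2 each, and Dusp4 and Dusp6 had 1 each. The study hybridised total RNA from 5 kinds of mouse cells to Affymetrix expression arrays, with 3 samples of each and 15 arrays in all. 3 lines of induced pluripotent stem (iPS) cells, named IP14D-1, IP14D-101 and IP20D-3, were set against CL11, a line of embryonic stem (ES) cells, and against mouse embryonic fibroblasts (MEF), described as the cells that gave rise to the iPS cells. IP14D-1, IP20D-3, CL11 and MEF have the B6D2F1 genetic background. IP14D-101 has the C57x129S2 background, which is not that of these fibroblasts, so that line and background cannot be told apart for it. ES and iPS cells were grown on MEF feeders arrested with mitomycin C, with LIF, in medium with serum or with Knockout serum replacement; the medium of each line is not stated in the labels. The labels give no ages and do not name the reprogramming factors, and each iPS group is a single cell line, so a difference between groups is one between lines. The samples of a group are called biological replicates in the design, and the p-values below measure the spread between these samples.

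FGF4 binds FGF receptors at the cell surface and, through adaptor proteins and the RAS, RAF and MEK proteins, activates the ERK kinases. Active ERK raises transcription of the ETS factors Etv4 and Etv5 and of inhibitors that dampen the same route: Sprouty and Spred proteins act between receptor and RAF, and dual-specificity phosphatases such as DUSP6 dephosphorylate ERK itself. Mouse ES cells make FGF4 under the control of Oct4 and Sox2, and this autocrine signal is known for moving ES cells out of self-renewal and, in the blastocyst, for directing inner cell mass cells to primitive endoderm.

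The sequences just upstream of the ligand gene, of 1 phosphatase gene and of 1 ETS factor gene that were higher in all lines than in MEF are shown, since these carry the main contrast below. They come from the RefSeq promoter table for the mouse build GRCm38.p6, in which 6 of the 10 genes had an entry that was used, and each covers the 250 bases before the annotated transcription start, read on the strand of the gene. Capitals mark CCAAT or its reverse complement ATTGG.
Fgf4, chr7:144861136-144861385, plus strand: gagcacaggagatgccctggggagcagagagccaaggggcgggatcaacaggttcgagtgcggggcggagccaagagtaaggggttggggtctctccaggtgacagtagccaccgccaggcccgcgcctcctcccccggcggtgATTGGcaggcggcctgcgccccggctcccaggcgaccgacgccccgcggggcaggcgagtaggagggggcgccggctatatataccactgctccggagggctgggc
Dusp6, chr10:99262981-99263230, plus strand: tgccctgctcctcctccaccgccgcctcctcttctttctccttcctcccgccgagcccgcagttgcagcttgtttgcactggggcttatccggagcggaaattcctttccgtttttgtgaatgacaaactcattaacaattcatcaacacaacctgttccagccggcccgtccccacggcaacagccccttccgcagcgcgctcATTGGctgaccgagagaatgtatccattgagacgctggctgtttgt
Etv5, chr16:22439571-22439820, minus strand: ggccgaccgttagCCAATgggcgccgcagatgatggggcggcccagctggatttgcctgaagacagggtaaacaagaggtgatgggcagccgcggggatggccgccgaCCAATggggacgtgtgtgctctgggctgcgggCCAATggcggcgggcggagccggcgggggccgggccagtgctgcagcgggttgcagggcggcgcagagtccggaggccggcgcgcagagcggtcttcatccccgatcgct
The windows of Fgf4 and Dusp6 each held 1 such match, and the Etv5 window shown held 3. A second Etv5 window in the table, chr16:22438369-22438618, held 1, and those of Fgfr2, Spry2 and Spred1 held none. A match of this kind was present in 33.8% of the 32851 promoters in the table. CCGGAA, a longer form of the ETS core GGAA, was sought on either strand. It was in none of the windows used for Fgf4, Fgfr2, Spry2, Dusp6, Etv5 and Spred1, against 12% of all promoters. The short core GGAA was not counted, and it does occur in the Dusp6 window shown. The octamer ATGCAAAT was likewise in none of them, against 1.6% of all promoters. With so few windows and such rates, a lack of matches carries little information. It does not bear on the control of Fgf4 by Oct4 and Sox2. These counts describe letters in a short window, and the files hold no measurement of binding.

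Signals were scaled between arrays and are given as log2(signal + 16), called the log2 level below. Levels can be set against each other across samples for 1 probe set, and not between probe sets. The background level was set at 11.06 on this scale, the 95th percentile of all values of 44 probe sets of olfactory receptors. Between 49.6% and 58% of probe sets lay above it on an array, and the small number of arrays limits the precision. The cell labels were checked on marker lists. All 10 pluripotency markers were higher in each of the 4 lines than in MEF. All 11 fibroblast markers measured were lower in each line, with summed signals of 30199 to 31496 in IP14D-1, 10949 to 14011 in IP14D-101, 11666 to 16504 in IP20D-3 and 11093 to 12609 in CL11, against 4394266 to 4834759 in MEF. IP14D-1 had 5 of the 11 above background, Col1a1 and Col3a1 among them, and the other 3 lines had 2 each. A sign of RNA quality, the actin signal at the 3' end over that at the 5' end, averaged 1.366 ± 0.0365 in IP14D-1, 1.218 ± 0.0636 in IP14D-101, 1.276 ± 0.0263 in IP20D-3, 1.206 ± 0.0184 in CL11 and 1.161 ± 0.0185 in MEF (SD, n = 3 each). The part of either measure in the results was not tested.

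The 4 pluripotent lines had far more Fgf4 than MEF, less Fgfr1, and more Spry2, Spry4, Spred1, Dusp6, Etv4 and Etv5. A mixed list of other genes tied to the ERK response, given at the end, had more members lower than higher. Of the 31 probe sets, 24 passed the limma test in IP14D-1 over MEF (22 higher and 2 lower), 23 in IP14D-101 over MEF (21 and 2), 24 in IP20D-3 over MEF (21 and 3) and 24 in CL11 over MEF (22 and 2), where passing means an adjusted p under 0.05. The share of all probe sets that passed was 42% in IP14D-1 (23.3% higher, 18.7% lower), 45.7% in IP14D-101 (21.8% higher, 23.9% lower), 43.8% in IP20D-3 (23.5% higher, 20.3% lower) and 43.4% in CL11 (22.1% higher, 21.3% lower). The median log2 difference over the 31 probe sets was 1.49 in IP14D-1, 0.91 in IP14D-101, 0.95 in IP20D-3 and 1.40 in CL11, against 0.11, -0.13, 0.03 and -0.06 over all probe sets in the same order of lines. The genes were chosen with earlier results of these data known. Their shares and medians, here and below, are therefore not an independent test against all probe sets. These 4 comparisons share the MEF arrays. Of the 31 probe sets, 5 were below background in every group mean: 1 each of Fgf4, Fgfr2 and Spry2 and 2 of Spred1. Each gene is described by its brightest probe set. In cultures such as these, fewer cells making a transcript and less transcript per cell cannot be told apart.

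**Figure D1:**
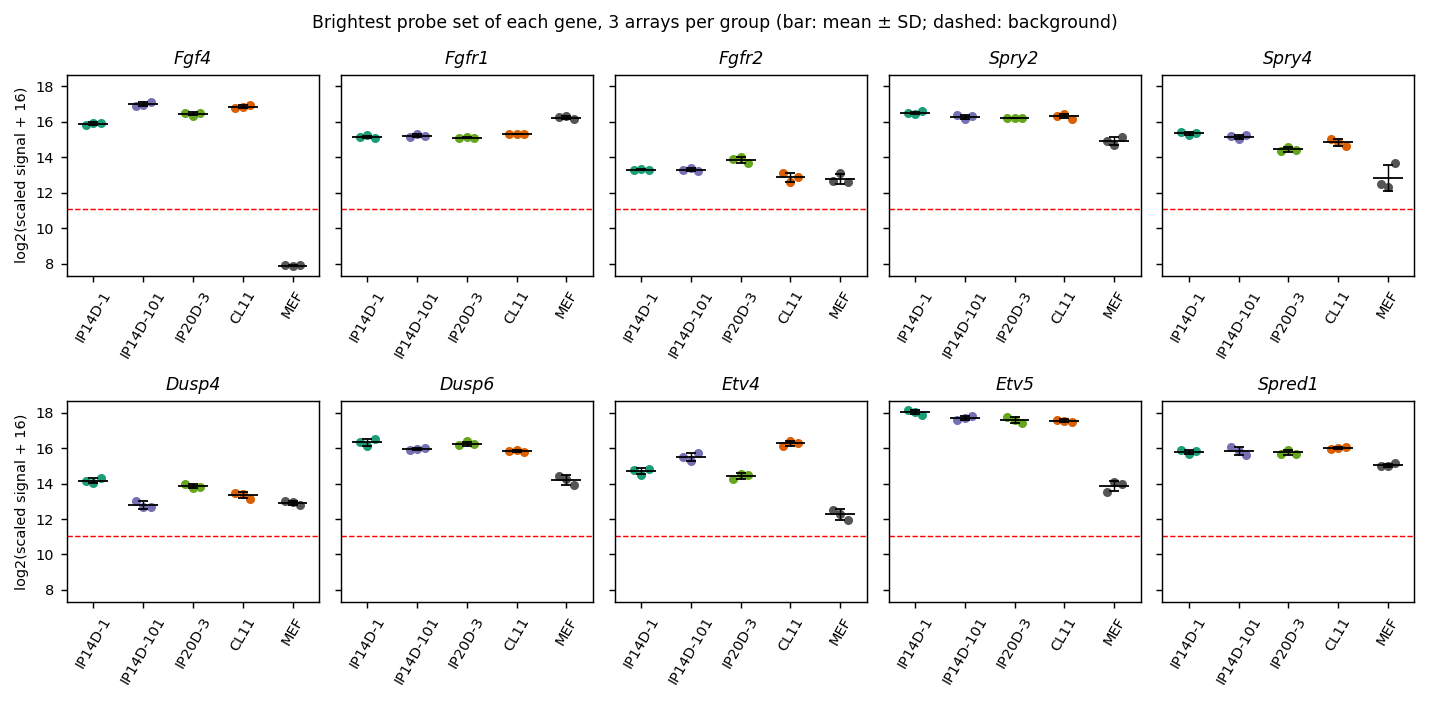
Log2 level, log2(scaled signal + 16), of the brightest probe set of each gene on every array, grouped as IP14D-1, IP14D-101, IP20D-3, CL11 and MEF; points are arrays, bars are the mean ± SD of 3, and the dashed line is the background of 11.06. Fgf4 in MEF is the 1 group below that line, and Fgfr1 is the 1 gene with its highest levels in MEF.

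Fgf4, the ligand, was the gene with the widest gap between the pluripotent lines and MEF. Its log2 level was 15.83, 15.96 and 15.93 on the 3 arrays of IP14D-1, 16.90, 16.98 and 17.10 in IP14D-101, 16.52, 16.36 and 16.52 in IP20D-3, 16.78, 16.84 and 16.95 in CL11, and 7.90, 7.84 and 7.91 in MEF. All 12 arrays of the pluripotent lines were well above background and all 3 of MEF below it. With MEF raised to background, Fgf4 was higher by at least 28.7-fold for IP14D-1, at least 61.1-fold for IP14D-101, at least 42.3-fold for IP20D-3 and at least 55.5-fold for CL11. The limma test used the MEF levels without this raising (adjusted p at most 7.9e-21), so it does not test these bounds. A second Fgf4 probe set, 1420085_at, gave bounds of at least 28.8-, 63.6-, 46.7- and 58.1-fold for the same lines. On the probe set 1450282_at, MEF averaged 11.46 ± 0.08, just above background, and the lines were 4.40-, 10.3-, 6.87- and 8.87-fold higher, each with an adjusted p under 0.05. The brightest of the probe sets carries the suffix that Affymetrix gives to sets with probes matching other transcripts. The fourth, 1449729_at, was below background in all groups.

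Among the pluripotent lines the order of Fgf4 was IP14D-101, CL11, IP20D-3 and IP14D-1. IP14D-101 and CL11 did not differ beyond their spread (0.14, SE 0.09, adjusted p = 0.44), and their arrays overlapped. IP14D-1 was below CL11 by a log2 difference of -0.95 (SE 0.09, adjusted p = 9.52e-07), a 1.93-fold lower signal, and its 3 arrays were the lowest of the 12. The 1420085_at and 1450282_at probe sets both gave -1.01 for this difference, with adjusted p of 6.96e-06 and 0.000563. IP20D-3 was lower than CL11 by a smaller amount, -0.39 (SE 0.09, adjusted p = 0.00588), and its arrays did not overlap those of CL11. For IP20D-3 the other sets gave -0.31 (adjusted p = 0.0797) and -0.37 (adjusted p = 0.205), so that this call rests on 1420086_x_at. That set is the brightest over all arrays only through MEF, where it was below background. Within the lines 1420085_at was brighter, at 16.92 against 16.86 in CL11 and 16.61 against 16.47 in IP20D-3. All 10 pluripotency markers were above background in each of the 4 lines, with summed signals of 3424801 to 3578098 in IP14D-1, 4088787 to 4453430 in IP14D-101, 3701254 to 4080124 in IP20D-3 and 3815746 to 4040482 in CL11. The lowest sums thus fell in the line with the lowest Fgf4, and their part in the result was not tested.

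The receptors moved less, and Fgfr1 moved the other way. Fgfr1, the main FGF receptor of ES cells, had log2 levels of 15.16, 15.23 and 15.11 in IP14D-1, 15.14, 15.30 and 15.22 in IP14D-101, 15.07, 15.16 and 15.10 in IP20D-3, 15.33, 15.32 and 15.31 in CL11, and 16.26, 16.32 and 16.15 in MEF. Every array of the lines was below every array of MEF, while the lines lay within a narrow band. Fgfr1 fell by 1.08 on the log2 scale in IP14D-1 (adjusted p = 1.04e-09), by 1.03 in IP14D-101 (1.88e-09), by 1.13 in IP20D-3 (4.52e-10) and by 0.92 in CL11 (8.63e-09), each with an SE of 0.08. That is between 1.90- and 2.19-fold lower. The 1424050_s_at probe set also fell in all 4 lines, and the dim 1436551_at passed in IP20D-3 alone among the 4 comparisons. No Fgfr1 probe set passed in any iPS line over CL11 or between iPS lines, and for the brightest the gaps between neighbours in the order CL11, IP14D-101, IP14D-1, IP20D-3 were 0.10 or less.

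Fgfr2, the receptor better known from epithelia and primitive endoderm, was dimmer and its probe sets disagreed. Its brightest one gave 13.26, 13.35 and 13.29 in IP14D-1, 13.27, 13.38 and 13.23 in IP14D-101, 13.89, 14.02 and 13.66 in IP20D-3, 13.14, 12.60 and 12.88 in CL11, and 12.67, 13.12 and 12.61 in MEF. IP20D-3 was the highest group and shared no value with the others, and CL11 and MEF overlapped. The difference from MEF was 1.06 in IP20D-3 (SE 0.17, adjusted p = 3.59e-05), 0.50 in IP14D-1 (0.0234), 0.49 in IP14D-101 (0.0241), and it was 0.07 in CL11 (0.789). The calls in IP14D-1 and IP14D-101 were fragile: without MEF replicate 1 they had adjusted p of 0.0857 and 0.0858, and without MEF replicate 3 of 0.101 and 0.103. The IP14D-1 call was also lost without each of IP14D-1 replicate 2 (0.0681) and replicate 3 (0.0507), and the IP14D-101 call without IP14D-101 replicate 2 (0.0714). On deposited signals without scaling the Fgfr2 difference was -0.08 in IP14D-101 and -0.35 in CL11, the opposite direction, and none of the 4 passed. The other probe set above background, 1420847_a_at, passed in no comparison. IP20D-3 over CL11 was 0.99 (SE 0.17, adjusted p = 0.000505) on the brightest probe set and 0.49 (adjusted p = 0.196) on 1420847_a_at.

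**Figure D2:**
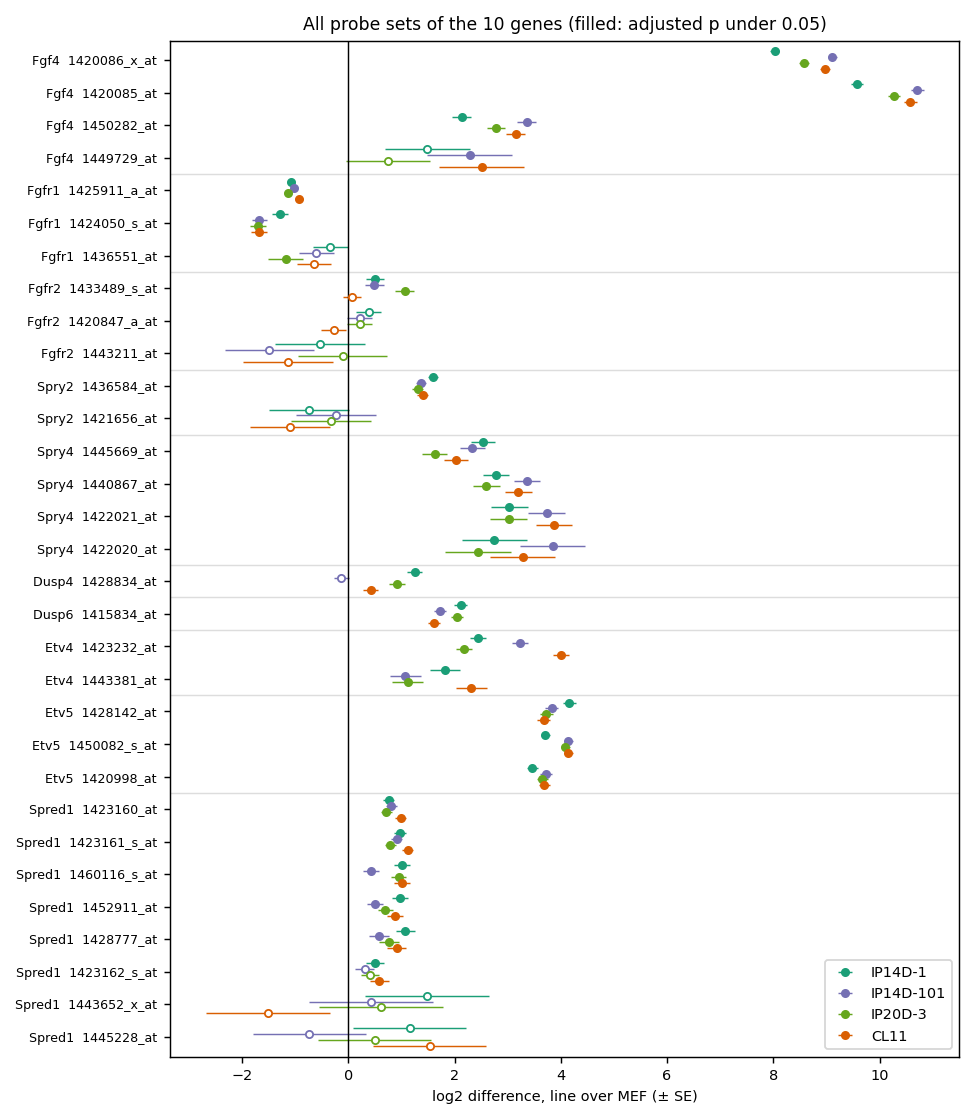
Log2 difference of each line over MEF, with its SE, for all 31 probe sets of the 10 genes, in the order IP14D-1, IP14D-101, IP20D-3 and CL11 within a row; filled points have an adjusted p under 0.05. The points of the Fgf4 sets 1420086_x_at and 1420085_at lie farthest right. MEF is below background on these sets, so that their exact place is not measured. The Fgf4 sets 1450282_at and 1449729_at lie farther left than those of Etv5. The Etv5 sets lie between 3.46 and 4.16, and the Fgfr1 sets left of 0.

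Spry2, Spry4 and Spred1 were higher in all lines than in MEF. Of the same families, Spry1 and Spred3 were not, and are given with the other regulators. Spred2, named here after its values were seen, was higher in CL11 than in MEF by 1.67 (adjusted p = 1.15e-12 by limma). It averaged 16.82 in CL11, 16.70 in IP14D-1 and 16.48 in IP20D-3, against 15.15 in MEF. Spry2, a feedback inhibitor of receptor tyrosine kinase signalling, had log2 levels of 16.48, 16.46 and 16.60 in IP14D-1, 16.37, 16.17 and 16.33 in IP14D-101, 16.20, 16.22 and 16.25 in IP20D-3, 16.34, 16.42 and 16.19 in CL11, and 14.91, 14.70 and 15.15 in MEF. The 12 arrays of the lines formed 1 band above the 3 of MEF. Spry2 rose by 1.59, 1.37, 1.30 and 1.40 in IP14D-1, IP14D-101, IP20D-3 and CL11 (SE 0.10, adjusted p at most 1.83e-09), or 2.47- to 3.01-fold. None of the iPS lines passed the test against CL11 (0.19, -0.03 and -0.09 in IP14D-1, IP14D-101 and IP20D-3), and with arrays scaled to their median the IP14D-1 value was -0.05 and the IP14D-101 value 0.09. The 1421656_at probe set was below background throughout.

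Spry4, a close relative with the same role, gave 15.44, 15.26 and 15.39 in IP14D-1, 15.18, 15.05 and 15.25 in IP14D-101, 14.35, 14.60 and 14.39 in IP20D-3, 15.01, 14.88 and 14.64 in CL11, and 12.46, 12.33 and 13.68 in MEF. MEF replicate 3 stood more than 1 log2 unit above the other MEF replicates and still below every array of the lines. The difference from MEF was 2.54 in IP14D-1, 2.34 in IP14D-101, 1.63 in IP20D-3 and 2.02 in CL11 (SE 0.23, adjusted p at most 7.81e-06). All 4 Spry4 probe sets passed in all 4 lines. On 1440867_at the differences ran from 2.60 to 3.36. MEF was below background on the other sets, where the lines were at least 2.47-, 4.02-, 2.45- and 4.42-fold higher on 1422021_at and at least 1.502-, 3.22-, 1.21- and 2.17-fold higher on 1422020_at, in the order IP14D-1, IP14D-101, IP20D-3 and CL11. They did not agree on the order of the lines. The brightest put IP14D-1 highest, whereas 1440867_at averaged 14.91 ± 0.47 in IP14D-1, 15.49 ± 0.04 in IP14D-101, 14.73 ± 0.15 in IP20D-3 and 15.34 ± 0.04 in CL11. No Spry4 probe set passed in any iPS line over CL11.

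Spred1, which restrains RAS by recruiting neurofibromin, changed least among the inhibitors that rose in all lines. Its log2 level was 15.89, 15.68 and 15.84 in IP14D-1, 16.07, 15.85 and 15.63 in IP14D-101, 15.68, 15.89 and 15.70 in IP20D-3, 15.97, 16.03 and 16.08 in CL11, and 15.01, 14.97 and 15.14 in MEF. No array of a line overlapped MEF. The difference was 0.76, 0.81, 0.72 and 0.99 in IP14D-1, IP14D-101, IP20D-3 and CL11 (SE 0.10, adjusted p at most 8.95e-06). Without scaling it was 0.24 in IP14D-101 (adjusted p = 0.219), and it was 0.08 in IP20D-3 (0.711). Of the 6 Spred1 probe sets above background, 5 passed in every line, and 1423162_s_at passed in IP14D-1 and CL11 but not in IP14D-101 or IP20D-3, where it stood 0.31 and 0.40 above MEF.

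The 2 phosphatase genes differed from each other. Dusp6, which encodes a cytoplasmic phosphatase specific for ERK, had log2 levels of 16.34, 16.12 and 16.52 in IP14D-1, 15.87, 15.95 and 16.003 in IP14D-101, 16.16, 16.38 and 16.24 in IP20D-3, 15.83, 15.89 and 15.76 in CL11, and 14.45, 14.28 and 13.91 in MEF. All arrays of the lines were above all of MEF, by 2.12 in IP14D-1, 1.73 in IP14D-101, 2.05 in IP20D-3 and 1.61 in CL11 (SE 0.12, adjusted p at most 1.22e-09), or 3.05- to 4.33-fold. IP14D-1 and IP20D-3 were also above CL11, by 0.50 (adjusted p = 0.00608) and 0.44 (0.0181), with no overlap. With arrays scaled to their median these became 0.26 (0.299) and 0.31 (0.246). The IP20D-3 call was also lost without scaling (0.22, adjusted p = 0.266), without the variance trend (0.0956), without CL11 replicate 3 (0.0742) and without IP20D-3 replicate 2 (0.0832).

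Dusp4, a nuclear phosphatase of ERK and other MAP kinases, was the 1 gene whose brightest probe set passed the test above CL11 in some iPS lines and below it in another, though the call below it is lost in several settings. Its log2 level was 14.15, 14.04 and 14.30 in IP14D-1, 13.02, 12.69 and 12.66 in IP14D-101, 13.96, 13.74 and 13.81 in IP20D-3, 13.45, 13.43 and 13.14 in CL11, and 13.00, 12.97 and 12.79 in MEF. IP14D-101 overlapped MEF, and every other line was above it. The difference from MEF was 1.25 in IP14D-1 (SE 0.15, adjusted p = 7.33e-07), 0.92 in IP20D-3 (3e-05), 0.42 in CL11 (0.0251) and -0.13 in IP14D-101 (0.522), the last turning to 0.22 with median scaling and 0.15 with quantile normalization. Without scaling the value in IP14D-101 was -0.70 (0.0029), and those in IP20D-3 and CL11, 0.28 (0.221) and 0.00 (0.988), did not pass. The CL11 call was lost without CL11 replicate 1 (adjusted p = 0.0916), CL11 replicate 2 (0.0854) or MEF replicate 3 (0.0918).

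Over CL11, Dusp4 stood at 0.83 in IP14D-1 (SE 0.15, adjusted p = 0.000571), -0.55 in IP14D-101 (0.0265), and it was 0.50 in IP20D-3 (0.0266). The IP14D-1 call held in every fit tried. The IP14D-101 call was lost with median scaling (0.13), with quantile normalization (0.0697), and without CL11 replicate 1 (0.105) or 2 (0.104) or IP14D-101 replicate 2 (0.0702) or 3 (0.0728). The IP20D-3 call was lost with median scaling (0.155), with quantile normalization (0.0563), without scaling (0.398), and without CL11 replicate 3 (0.136) or IP20D-3 replicate 1 (0.115) or 3 (0.0599). Dusp4 had 1 probe set, so no second one could be set beside it.

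The ETS factor genes were far above MEF in every line. Etv5 is a transcriptional activator of the PEA3 group and a common readout of FGF signalling. Its log2 level was 18.14, 18.06 and 17.89 in IP14D-1, 17.59, 17.71 and 17.80 in IP14D-101, 17.79, 17.58 and 17.42 in IP20D-3, 17.62, 17.56 and 17.47 in CL11, and 13.54, 14.09 and 13.98 in MEF. The lines exceeded MEF by 4.16, 3.83, 3.72 and 3.68 in IP14D-1, IP14D-101, IP20D-3 and CL11 (SE 0.12, adjusted p at most 9.9e-15), or 12.8- to 17.9-fold. All 3 probe sets passed in all 4 lines. On the difference between IP14D-1 and CL11 they contradicted each other: the brightest gave 0.48 (adjusted p = 0.00875), 1450082_s_at gave -0.43 (0.00119) and 1420998_at gave -0.22 (0.175), so no direction is given for it.

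Etv4, a second ETS factor of the same group, had the widest range of means among the 4 lines. Its log2 level was 14.76, 14.50 and 14.82 in IP14D-1, 15.49, 15.27 and 15.72 in IP14D-101, 14.26, 14.54 and 14.49 in IP20D-3, 16.10, 16.42 and 16.27 in CL11, and 12.52, 12.31 and 11.95 in MEF. CL11 was highest, IP14D-101 next, and IP14D-1 and IP20D-3 overlapped below them. The lines exceeded MEF by 2.43 in IP14D-1, 3.24 in IP14D-101, 2.17 in IP20D-3 and 4.01 in CL11 (SE 0.15, adjusted p at most 3.81e-10), or 5.41-, 9.42-, 4.50- and 16.1-fold. Relative to CL11, Etv4 was -1.57 in IP14D-1 (SE 0.15, adjusted p = 8.84e-07), -0.77 in IP14D-101 (0.00309), and it was -1.84 in IP20D-3 (1.28e-07), which is 2.97-, 1.71- and 3.57-fold lower. With median scaling the IP14D-101 value was -0.65 and missed the threshold (0.0532). The dimmer 1443381_at was below CL11 too, with differences of -0.50 in IP14D-1 (0.291), -1.24 in IP14D-101 (0.0123), and it was -1.20 in IP20D-3 (0.008), but put IP14D-101 beside IP20D-3 rather than above it.

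The comparisons with CL11 as a whole were as follows. In IP14D-1, 8 of the 31 probe sets passed (3 higher and 5 lower), against 17.2% of all probe sets (9.42% higher, 7.78% lower). In IP14D-101, 4 passed (0 higher and 4 lower), against 7.18% of all (3.32% higher, 3.87% lower). In IP20D-3, 6 passed (3 higher and 3 lower), against 14.5% of all (7.6% higher, 6.87% lower). The members' shares were 25.8%, 12.9% and 19.4% in the same order, and a change in a single gene counts more than once where it has several probe sets: 3 of the 5 lower sets in IP14D-1 were of Fgf4. The median log2 difference over the 31 probe sets was -0.09, 0.01 and -0.19, against 0.12, -0.04 and 0.07 over all probe sets. The calls on a brightest probe set that held in all 10 alternative settings and with each array left out were Fgf4, Dusp4 and Etv4 in IP14D-1 and Fgf4, Fgfr2 and Etv4 in IP20D-3. None held in IP14D-101. No setting put another probe set of a gene in place of the brightest. On their other sets above background, Fgf4 and Fgfr2 in IP20D-3 and Etv4 in IP14D-1 did not pass. These comparisons share the CL11 arrays.

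**Figure D3:**
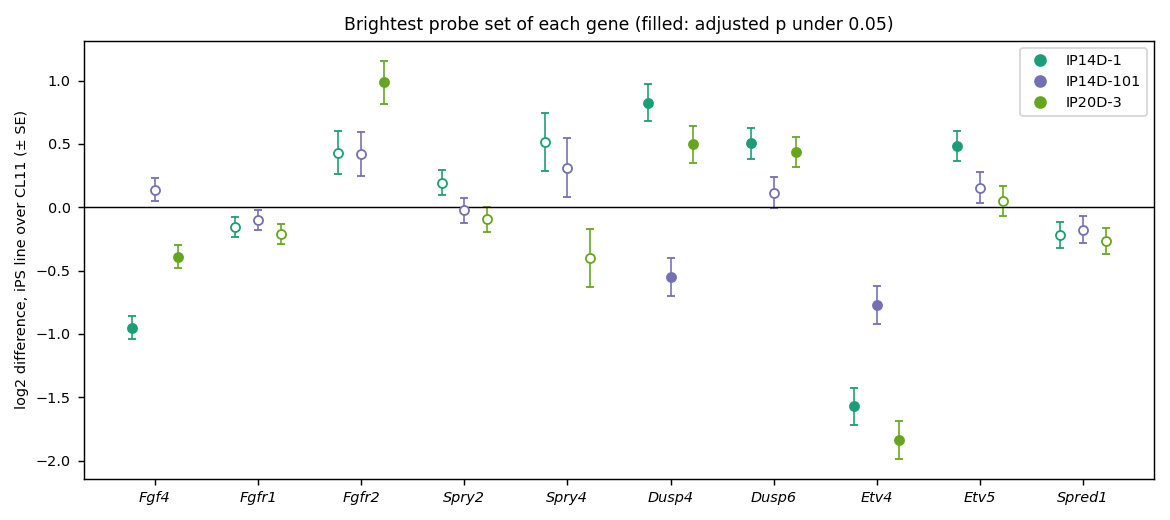
Log2 difference of the iPS lines over CL11, in the order IP14D-1, IP14D-101 and IP20D-3, with its SE, for the brightest probe set of each gene; filled points have an adjusted p under 0.05. Etv4 lies below 0 in all 3 lines, and Dusp4 lies at 0.83, -0.55 and 0.50.

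Markers of primitive endoderm, a cell type that ES cultures can contain and whose formation depends on FGF signalling, also differed between the lines. All 12 were lower in IP14D-1 and in IP20D-3 than in CL11, and 3 of 12 were lower in IP14D-101. Their summed signal was 284244 to 313782 in IP14D-1, 558421 to 679410 in IP14D-101, 235142 to 252881 in IP20D-3 and 931566 to 947414 in CL11. The number above background was 7, 12, 6 and 12. MEF had the highest sum of all, 2211342 to 2417258, with 8 of the 12 above background, among them Sparc, Col4a1, Col4a2 and Lamb1, so the sum does not measure primitive endoderm alone. Gata6, a transcription factor that defines the lineage, averaged 10.93 ± 0.54 in IP14D-1, 14.51 ± 0.16 in IP14D-101, 10.96 ± 0.32 in IP20D-3 and 14.91 ± 0.15 in CL11 (SD, n = 3 each), so that it was below background in IP14D-1 and IP20D-3; MEF averaged 13.96 ± 0.11. Cubn, an endocytic receptor of that tissue, averaged 9.41 ± 0.68, 14.87 ± 0.11, 8.997 ± 1.14 and 15.12 ± 0.10 in the same order of lines, against 10.14 ± 0.80, below background, in MEF. The part of these cells in the Etv4 and Fgfr3 differences was not tested.

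Between iPS lines, 9 of the 31 probe sets passed in IP14D-101 over IP14D-1 (5 higher and 4 lower), where 23.4% of all probe sets did (9.5% higher, 13.9% lower). In IP20D-3 over IP14D-1, 6 passed (4 higher and 2 lower), against 5.48% of all (2.74% higher, 2.74% lower), but this count was 2 to 4 with any 1 of the arrays left out, 19 without scaling and 2 without the variance trend. In IP20D-3 over IP14D-101, 9 passed (3 higher and 6 lower), against 18.2% of all (10.5% higher, 7.67% lower), and the count was 3 to 7 with an array left out. The members' median log2 difference was -0.17, -0.18 and -0.07 in these comparisons, against -0.17, -0.05 and 0.11 over all probe sets. The differences that held in every setting and with each array left out were those of Fgf4 and Dusp4 between IP14D-101 and IP14D-1, and those of Fgf4, Dusp4 and Etv4 between IP20D-3 and IP14D-101. Between IP20D-3 and IP14D-1 none held throughout. These are calls on the brightest probe set, and the dimmer Etv4 set did not pass between IP20D-3 and IP14D-101. Spred1 had no call on its brightest probe set between iPS lines, but 1460116_s_at was lower in IP14D-101 than in IP14D-1 (-0.59, adjusted p = 0.00715) and than in CL11 (-0.59, adjusted p = 0.0203).

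The genes with a pattern most like that of Fgf4 were found by the root mean square difference between centred means over the 5 groups, among 13115 genes with a group above background. They were Upp1, a uridine phosphorylase (0.214), Nanog, a core factor of pluripotency (0.235), Phlda2, an imprinted growth-related gene (0.328), Mymx, known as a membrane fusion factor in muscle (0.333), and Rhpn2 (0.337). Nanog averaged 18.07 in IP14D-1, 18.43 in IP14D-101, 18.29 in IP20D-3, 18.54 in CL11 and 9.67 in MEF. Their likeness to Fgf4 over these groups is what they were chosen by. All 5, like Fgf4, were below background in MEF, so both the choice of these genes and their order rest in part on levels that were not measured.

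The other genes of the pathway are given by list, each gene by its brightest probe set. Among all 18193 genes, the share called over MEF was 51.6% in IP14D-1 (29.3% higher, 22.3% lower), 54.1% in IP14D-101 (29.9% higher, 24.2% lower), 53.1% in IP20D-3 (29.9% higher, 23.2% lower) and 53% in CL11 (29.7% higher, 23.3% lower). The counts below stand against these shares, and 7 to 9 FGF genes of 13 called is close to them. The lists were also chosen with earlier results of these data known, so their counts are not an independent test either.

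Of 13 other FGF genes, 8 were above background in IP14D-1, 5 in IP14D-101, 6 in IP20D-3, 5 in CL11 and 5 in MEF. Against MEF, 4 were higher and 3 lower in IP14D-1, 5 and 4 in IP14D-101, 3 and 4 in IP20D-3, and 3 and 4 in CL11. Fgf13, on this list of ligands, is an intracellular member of the family rather than a secreted ligand. It was above background in every group and is part of these counts. Fgf15, an endocrine FGF also made by ES cells, averaged 13.02 ± 0.10 in IP14D-1, 12.72 ± 0.03 in IP14D-101, 13.06 ± 0.32 in IP20D-3, 11.69 ± 0.12 in CL11 and, below background, 7.82 ± 1.14 in MEF. It was at least 3.87-, 3.16-, 4.005- and 1.55-fold higher in the lines. Fgf17, of the same subfamily as Fgf8, was at least 6.62-fold higher for IP14D-1, at least 12.3-fold for IP14D-101 and at least 6.05-fold for CL11. In IP20D-3 it averaged 13.60, near the 13.66 of CL11, against 9.88, below background, in MEF. Fgf5, the classic marker of the epiblast after implantation, averaged 12.23 ± 0.69 in IP14D-1 and 11.55 ± 0.88 in IP20D-3, above background, and 9.41 ± 1.08 in IP14D-101, 8.15 ± 1.02 in CL11 and 6.95 ± 0.68 in MEF, below it. It was at least 2.25-fold higher in IP14D-1 than in CL11 (adjusted p = 0.000828) and at least 1.40-fold higher in IP20D-3 (0.00412). Fgf2, a mitogen of fibroblasts, averaged 12.28 ± 0.05 in MEF and was below background in every line, at least 2.33-fold lower in IP14D-101, IP20D-3 and CL11.

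Of 12 other receptors, co-receptors and heparan sulfate genes measured, 2 were higher and 7 lower in IP14D-1 than in MEF, 5 and 7 in IP14D-101, 2 and 7 in IP20D-3, and 5 and 7 in CL11. The glypican Gpc4 was 5.67-, 8.09-, 7.63- and 6.51-fold lower in IP14D-1, IP14D-101, IP20D-3 and CL11. Ext1, which polymerises heparan sulfate, was 4.48-fold lower in IP14D-1, 3.79-fold in IP14D-101, 5.19-fold in IP20D-3 and 3.16-fold in CL11. Over CL11, Fgfr3, another FGF receptor, was lower, at -1.85 in IP14D-1 (adjusted p = 0.000129), -1.04 in IP14D-101 (0.0294), and it was -1.57 in IP20D-3 (0.000667). Klb, the co-receptor of endocrine FGFs, was at least 3.28-fold lower than in CL11 both in IP14D-1 and in IP20D-3. The adjusted p of 0.00119 and 0.000131 are by limma on levels not raised to background.

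Of 13 adaptors and kinases, 3 were higher and 9 lower in IP14D-1 than in MEF, 2 and 6 in IP14D-101, 3 and 7 in IP20D-3, and 5 and 5 in CL11. Gab1, a docking protein that couples receptors to RAS, was 12.2-fold higher in IP14D-1, 15.1-fold in IP14D-101, 12.1-fold in IP20D-3 and 12.1-fold in CL11. Ptpn11, the phosphatase SHP2 that passes the signal to RAS, was 2.67-, 2.81-, 2.68- and 2.89-fold lower, and Sos2, a RAS exchange factor, was 2.68-, 3.06-, 2.95- and 3.13-fold lower. The adaptor Grb2 was lower than in CL11 in all 3 iPS lines, at -0.77 in IP14D-1 (adjusted p = 3.02e-06), -0.49 in IP14D-101 (0.000756), and it was -0.70 in IP20D-3 (8.39e-06). The kinase genes went both ways over CL11. Map2k1 was lower in IP14D-1 (-0.88, adjusted p = 1.96e-05 by limma), and Braf was higher in IP20D-3 (0.80, adjusted p = 0.00095).

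The 17 other regulators were mixed. In IP14D-1, 4 were higher and 8 lower than in MEF, with 5 and 8 in IP14D-101, 5 and 8 in IP20D-3, and 5 and 7 in CL11. Most are known as inhibitors, but Flrt3 and Lgals3 on this list are reported to promote the signal. Dusp9, an ERK phosphatase known in ES cells as a target of BMP signalling, averaged 15.89 ± 0.05 in IP14D-1, 17.23 ± 0.21 in IP14D-101, 15.74 ± 0.04 in IP20D-3, 16.50 ± 0.09 in CL11 and 11.60 ± 0.09 in MEF (SD, n = 3 each), or 19.6-, 49.5-, 17.6- and 29.8-fold above MEF. Spry1 went against Spry2 and Spry4: it averaged 13.72 ± 0.29 in IP14D-1 and 13.32 ± 0.17 in CL11, against 16.42 ± 0.20 in MEF, 6.46- and 8.57-fold lower. The means of Spry1 in IP14D-101 and IP20D-3 were 14.32 and 14.36. Spred3 averaged 12.23 ± 0.26 in IP14D-1, 9.73 ± 0.69 in IP14D-101, 12.19 ± 0.08 in IP20D-3 and 9.65 ± 1.61 in CL11, against 13.38 ± 0.30 in MEF. It was at least 4.98-fold lower in IP14D-101 and in CL11, where it was below background, and did not pass in IP14D-1 or IP20D-3. Rasa3, a RAS GTPase-activating protein, was 10.4-fold lower in IP14D-1, 9.60-fold lower in IP20D-3 and 3.93-fold lower in CL11.

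The list of 13 other ERK response genes did not follow Etv4 and Etv5 as a whole. It was drawn up from general knowledge and is not limited to transcripts read as ERK output: Elk1, Elk3, Srf and Klf2 are on it. Its counts are therefore not a measure of ERK activity. In IP14D-1, IP14D-101 and IP20D-3, 3 were higher and 7 lower than in MEF, and in CL11 3 were higher and 6 lower. Their median log2 difference was -0.86, -0.84, -0.92 and -0.37, against 0.13, 0.05, 0.10 and 0.07 over all genes. Klf2, a factor of the naive pluripotency network, was 9.72-fold higher in IP14D-1, 10.995-fold in IP20D-3 and 6.41-fold in CL11. Elk3, an ETS factor that can repress transcription, was 9.40-, 13.9-, 18.7- and 6.76-fold lower in IP14D-1, IP14D-101, IP20D-3 and CL11. Over CL11, 3 of the 13 were higher and 3 lower in IP14D-1, 1 and 4 in IP14D-101, and 2 and 5 in IP20D-3, where 22.2% of all genes were called in IP14D-1 (10.7% higher, 11.5% lower), 9.75% in IP14D-101 (5.18% higher, 4.57% lower) and 19.5% in IP20D-3 (9.45% higher, 10.1% lower). Phlda1 fell in all 3 iPS lines, by 1.09 in IP14D-1, 1.31 in IP14D-101 and, on the same log2 scale, 1.81 in IP20D-3, and Ier3, an immediate early gene, had log2 differences of -1.65 in IP14D-1 and -2.01 in IP20D-3. Egr1, an immediate early gene of the ERK pathway named here after its values were seen, was higher than in CL11 by 0.60 in IP14D-1 (adjusted p = 0.0302), by 0.87 in IP14D-101 (0.00644) and by 1.49 in IP20D-3 (1.76e-05). Klf2 was higher than in CL11 by 0.60 in IP14D-1 and by 0.78 in IP20D-3.

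**Figure D4:**
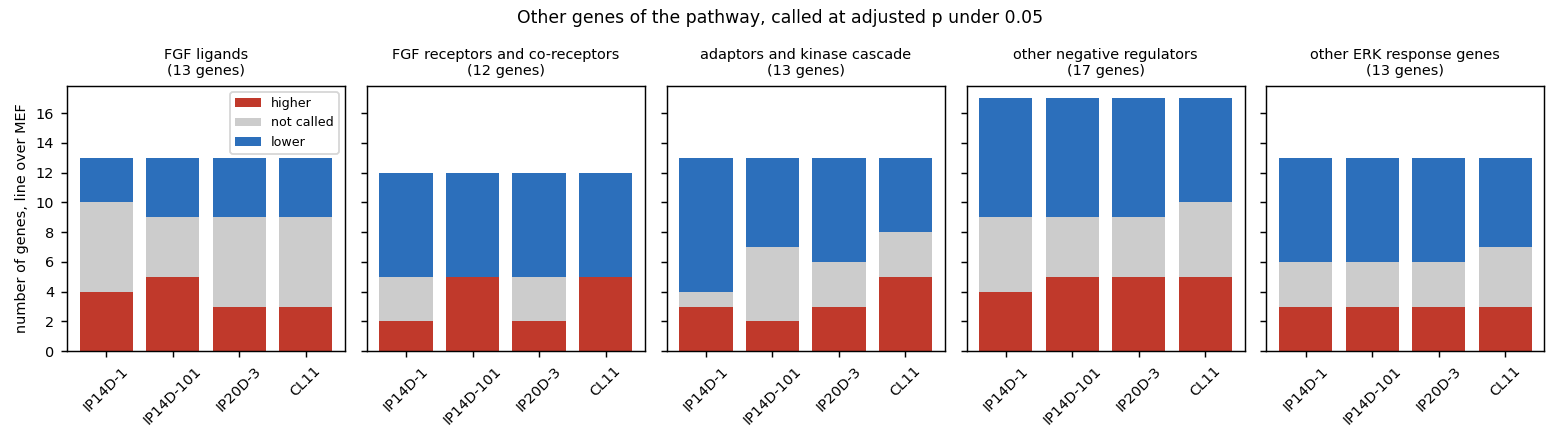
Number of genes of each list of other pathway genes that were higher, not called or lower in IP14D-1, IP14D-101, IP20D-3 and CL11 relative to MEF, at an adjusted p under 0.05. More genes were lower than higher in the receptor, regulator and response lists in every line; over all genes the called shares were 29.3% to 29.9% higher and 22.3% to 24.2% lower.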

How the data were processed

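Biotin-labelled RNA was hybridised to Affymetrix mouse arrays, 3 arrays for each of 5 groups. The deposited intensity values are MAS5 signals. Per the submitters' processing notes, the authors ran Affymetrix Expression Console; its version and the scaling target are not given in the sources used here. All 15 columns were mapped to a labelled sample (0 were not), 64 control probe sets were left out of 45101, and no pair of arrays had identical values. Trimmed means (2% at each end) ran from 11198.1 to 20466, a ratio of 1.83, and arrays were brought to the mean of these before log2(signal + 16) was taken. Probe sets were named from the platform annotation: 34945 name 1 gene, 932 several (not used for genes) and 9160 none. No member probe set was shared with another gene.

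A linear model with a mean per group was fitted to all 15 arrays and 45037 probe sets with limma 3.58.1 in R 4.3.3, with moderated variances that follow a trend on mean level, and was tested on simulated data. The 10 comparisons were adjusted by Benjamini-Hochberg over all probe sets within each, and an adjusted p under 0.05 counted as a call. Where the mean of the dimmer group was below background, its arrays below background were raised to it and the fold is given as a bound. The limma tests used the levels without this raising, so an adjusted p beside a bound does not test the bound. Alternatives were other scalings, pseudocounts of 1, 64 and 1000, a filter on dim probe sets, 1 probe set per gene, a replicate block, no variance trend, and each array left out. All 10 genes are named; of the other pathway lists, up to 3 called genes per comparison with MEF and up to 2 per comparison with CL11, with the largest differences and a group above background, were eligible. A line not given for such a gene fell outside this rule, which does not mean that the gene was unchanged there. The members and lists were chosen with earlier results of these data known.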

Additional observations from a re-analysis of the deposited data

Results flagged for a closer look

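The iPS lines differed in 7 of the 10 genes, pooled over the 3 comparisons between them, by limma on the brightest probe set. In IP14D-101 over IP14D-1, 4 of the 10 passed, against 26.9% of all genes. In IP20D-3 over IP14D-1, 3 passed, against 7.4%, and none of these held in every setting. In IP20D-3 over IP14D-101, 5 passed, against 22%. Since the genes were chosen with earlier results of these data known, these counts are not an independent test against all genes. Each difference is that of the first-named line minus the second on the log2 scale, so CL11 cancels out of it. Fgf4 differed by 1.09 in IP14D-101 over IP14D-1 (0.14 and -0.95 from CL11, SE 0.09, adjusted p = 1.8e-07), by 0.56 in IP20D-3 over IP14D-1 (-0.39 and -0.95, adjusted p = 0.000882, but 0.01 and 0.948 without scaling) and by -0.53 in IP20D-3 over IP14D-101 (-0.39 and 0.14, adjusted p = 0.000439). The 1420085_at and 1450282_at probe sets passed in the same 3 comparisons in the same direction. Dusp4 differed by -1.38 in IP14D-101 over IP14D-1 (-0.55 and 0.83 from CL11, SE 0.15, adjusted p = 2.66e-06) and by 1.05 in IP20D-3 over IP14D-101 (0.50 and -0.55, adjusted p = 6.13e-05). Etv4 differed by 0.80 in IP14D-101 over IP14D-1 (-0.77 and -1.57 from CL11, SE 0.15, adjusted p = 0.00065, but 0.32 and 0.117 without scaling) and by -1.07 in IP20D-3 over IP14D-101 (-1.84 and -0.77, adjusted p = 6.42e-05), while its dimmer probe set gave -0.74 and 0.04, neither past the threshold.

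Each of the other 5 differences lost its call without 1 or more single arrays. Fgfr2 differed by 0.57 in IP20D-3 over IP14D-101 (0.99 and 0.42 from CL11, adjusted p = 0.0264, up to 0.11 with an array left out). It was also lost with median scaling (0.32, adjusted p = 0.242), with quantile normalization (0.0744), without scaling (0.115) and without the variance trend (0.0503), and the 1420847_a_at probe set averaged 12.61 in both lines. Spry4 differed by -0.91 in IP20D-3 over IP14D-1 (-0.40 and 0.51 from CL11, adjusted p = 0.0248) and by -0.71 in IP20D-3 over IP14D-101 (-0.40 and 0.31, adjusted p = 0.0385), and the second was lost without any single one of its 6 arrays (adjusted p 0.0524 to 0.117), without scaling (0.0667) and without the variance trend (0.128). The first was lost without the variance trend (0.137) and without 5 of its 6 arrays in turn (0.0603 to 0.093). For it the 1440867_at, 1422021_at and 1422020_at probe sets gave -0.18, -0.01 and -0.31, none past the threshold; for the second they gave -0.76 (adjusted p = 0.0386), -0.71 and -1.41, of which 1440867_at passed. Dusp6 differed by -0.39 in IP14D-101 over IP14D-1 (0.12 and 0.50 from CL11, adjusted p = 0.0241) and by -0.02 with median scaling (0.94); the call was also lost without the variance trend (0.099). Etv5 differed by -0.43 in IP20D-3 over IP14D-1 (0.05 and 0.48 from CL11, adjusted p = 0.0429), where its 1450082_s_at probe set gave 0.38 (adjusted p = 0.00967), the opposite direction.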

How the results depend on the processing

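Calls over MEF for Fgf4, Fgfr1, Spry2, Spry4, Dusp6, Etv4 and Etv5 held in all 4 lines under all 10 alternatives and with each array left out. Scaling mattered most: it moved the median of all probe sets by as much as 0.36 with median scaling (IP14D-101 over IP14D-1), 0.22 with quantile normalization (the same comparison) and -0.62 without scaling (IP20D-3 over MEF). The share of higher calls among all calls was 55.6%, 47.8%, 53.7% and 51% in IP14D-1, IP14D-101, IP20D-3 and CL11 over MEF. It moved by over 10 points to 61.3% in IP14D-101 with median scaling and to 25.8%, 27.7% and 33% in IP14D-101, IP20D-3 and CL11 without scaling. Over CL11 it was 54.8%, 46.2% and 52.5% in IP14D-1, IP14D-101 and IP20D-3, 26.4%, 64% and 35.1% with median scaling, and 91%, 16.3% and 21.3% without scaling. In IP14D-101 over IP14D-1, IP20D-3 over IP14D-1 and IP20D-3 over IP14D-101 it was 40.6%, 50% and 57.8%, with median scaling 74.1%, 68% and 29.1%, and without scaling 4.2% in IP14D-101 over IP14D-1 and 0.863% in IP20D-3 over IP14D-1; it was 50.7% for IP14D-101 over IP14D-1 with quantile normalization. Members called numbered 1 (median scaling) and 2 (no trend) rather than 4 in IP14D-101 over CL11, 13 rather than 8 in IP14D-1 over CL11, 10 rather than 6 in IP20D-3 over CL11, 16 rather than 9 in IP14D-101 over IP14D-1 and 19 rather than 6 in IP20D-3 over IP14D-1 without scaling. Without the variance trend they numbered 2 rather than 6 in IP20D-3 over IP14D-1 and 4 rather than 9 in IP20D-3 over IP14D-101. With 1 array left out they ranged from 1 to 5 in IP14D-101 over CL11, 2 to 4 in IP20D-3 over IP14D-1 and 3 to 7 in IP20D-3 over IP14D-101. Small differences turned direction. With median scaling these were Dusp4 in IP14D-101 over MEF (0.217), Spry2 in IP14D-1 over CL11 (-0.0484), Fgfr1 (0.018) and Spry2 (0.0948) in IP14D-101 over CL11, and Etv5 in IP20D-3 over CL11 (-0.0796). With quantile normalization it was Dusp4 in IP14D-101 over MEF (0.152). Without scaling they were Fgfr2 in CL11 over MEF (-0.346) and IP14D-101 over MEF (-0.0774), Fgfr1 (0.173) and Spred1 (0.106) in IP14D-1 over CL11, Fgf4 (-0.0144) and Dusp6 (-0.0365) in IP14D-101 over CL11, and Etv5 in IP20D-3 over CL11 (-0.171). With 1 array left out, Fgfr2 in CL11 over MEF ranged from -0.0617 to 0.233, Spry2 in IP14D-101 over CL11 from -0.0886 to 0.0354, and Etv5 in IP20D-3 over CL11 from -0.0459 to 0.138. The cause was not tested. Same-numbered arrays did not deviate together over all probe sets (correlations -0.0239 to 0.0192 over 30 pairs). That cannot tell whether same-numbered samples were grown or processed together, which the labels do not state. A replicate block gave 24, 23, 24 and 24 members called over MEF in IP14D-1, IP14D-101, IP20D-3 and CL11. With it, 9, 4 and 7 were called over CL11, and 11, 4 and 9 between iPS lines. The block ended the call of Etv5 in IP20D-3 over IP14D-1 (-0.43, adjusted p = 0.0572 by limma).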
